A study of Homo sapiens with 18 samples.

Results

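The tRX genes are tRNA-like sequences of the human genome that carry a tRNA gene's name and overall form but stand outside the set of confidently called tRNA genes, with NNN in place of an anticodon. They were chosen as the rows of the count table whose name starts with tRX- and whose width, flanks included, is at most 500 bases. By that rule 29 of 175935 rows were members, under 26 names, since 3 names appear more than once, and they were set against the 499 tRNA rows of the same width limit. Rows extend 25 bases beyond each end of the annotated gene, so that leader and trailer sequence is counted with it. No tRX row overlapped a tRNA row.

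tRNA genes are transcribed by RNA polymerase III from a promoter inside the gene, made of an A box and a B box. Transcription ends in a run of T, so the new transcript carries a 3′ stretch of U, which the La protein binds until the trailer is cut away. La, encoded by SSB, is known for protecting and chaperoning such transcripts, vault RNAs and Y RNAs among them.

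Small RNA sequencing was done on HEK293T cells, an established human embryonic kidney line, 48 h after transfection with a scrambled siRNA (control) or an siRNA against SSB (siSSB). RNA came from whole cells (total), from the nuclear fraction (nuc) or from the cytoplasmic fraction (cyto), giving 6 groups of 3 libraries and 18 libraries in all. All libraries are marked as treated with PNK, an enzyme that repairs RNA ends so that more fragments can be ligated. siRNA knockdown lowers a gene's transcript without removing it, and the SSB transcript itself was not analysed here.

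Summed over all rows, in which a read can be counted in several overlapping rows, libraries held 21565995 to 158244813 counts. Rows of at most 500 bases held 2474767 to 7971532. As a check of the fractions, snoRNA rows (SNORD and SNORA) made up 75.6% to 82.3% of these small-row counts in nuc libraries and 7.76% to 11.6% in cyto libraries. Y RNA rows (RNY1, RNY3, RNY4 and RNY5) made up 0.0532% to 0.134% in nuc and 5.67% to 7.38% in cyto. Only these 2 sets were summed for the check. 7SK and 7SL RNA went the other way, and their values are given below with other polymerase III transcripts. tRNA rows took 19.4% to 29.1% of the small-row counts in cyto and 0.777% to 0.964% in nuc. Within each fraction the siSSB libraries held a lower mean share of tRNA counts than the control libraries, 21.6% ± 2.18 against 27.6% ± 1.36 in cyto (SD, n = 3 each). The means were 8.53% ± 0.693 against 9.79% ± 1.13 in total and 0.843% ± 0.0601 against 0.887% ± 0.0678 in nuc. In total and nuc the ranges overlapped. A lower share can mean less tRNA or more of the other small RNAs, and less RNA per cell or fewer cells holding it. These cannot be told apart in bulk libraries.

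Counts were very uneven among the members. Of the 29 rows, 12 had no count in any library, 10 had between 1 and 7 counts over all 18 libraries, and 7 had 10 or more (24.1%), while 479 of the 499 tRNA rows had 10 or more (96.0%). Only tRX-Cys-NNN-4-1, tRX-Glu-NNN-2-1 and tRX-Tyr-NNN-1-1 had counts in every library, and they held 43203 of the 43759 counts of all members (98.7%). The other rows of 10 or more counts were tRX-Gln-NNN-3-1 with 295, tRX-Ala-NNN-5-1 with 122, tRX-Asp-NNN-1-1 with 86 and tRX-Lys-NNN-1-1 with 27. tRX-Ile-NNN-3-1, the 8th by mean share of the tRX counts, had 3 counts, 2 of them in 1 siSSB nuc library. Counts are not corrected for length, but the annotated genes differ little, from 68 to 86 bases.

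**Figure D1:**
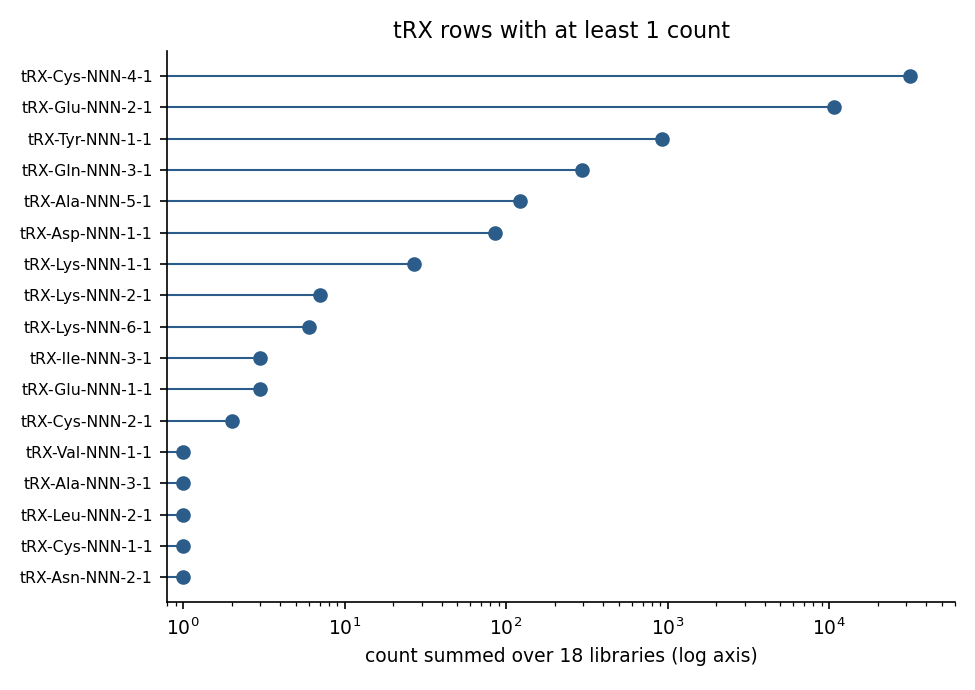
Counts of the 17 tRX rows with at least 1 count, summed over the 18 libraries (horizontal log axis), 1 line per row. tRX-Cys-NNN-4-1 (31554) and tRX-Glu-NNN-2-1 (10723) stand above tRX-Tyr-NNN-1-1 (926), and 10 rows lie under 10 counts.

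The 3 leading members differ in the sequence features that mark a polymerase III gene. Their annotated genes are printed with the 25 bases that follow, from the hg38 reference on the strand of the gene. Capitals mark the best match to the B box core GTTCGANNC where it has at most 1 mismatch, and every run of 4 or more T in the last 50 bases.
tRX-Cys-NNN-4-1: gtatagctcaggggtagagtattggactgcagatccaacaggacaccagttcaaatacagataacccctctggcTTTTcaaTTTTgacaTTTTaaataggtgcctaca
tRX-Glu-NNN-2-1: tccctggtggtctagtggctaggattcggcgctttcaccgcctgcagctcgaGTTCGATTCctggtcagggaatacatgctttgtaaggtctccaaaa
tRX-Tyr-NNN-1-1: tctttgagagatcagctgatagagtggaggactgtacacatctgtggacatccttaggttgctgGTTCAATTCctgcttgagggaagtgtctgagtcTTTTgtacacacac

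tRX-Cys-NNN-4-1 lies at chr7:149628153-149628235 on the plus strand, 83 bases long, within 100 kb of 14 tRNA rows, the closest 7401 bases away. It overlaps no GENCODE gene and no other row of the table. Its best B box window has 2 mismatches, and 3 runs of T follow near its 3′ end, the first starting at base 75 of the annotated gene. tRX-Tyr-NNN-1-1 lies at chr14:20669174-20669259 on the minus strand, also in a group of 14 tRNA rows within 100 kb and 5838 bases from tRNA-Tyr-GTA-3-2, its most similar tRNA row. It too overlaps no GENCODE gene, has a B box with 1 mismatch, and has a run of T that starts at base 12 of its 3′ flank.

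tRX-Glu-NNN-2-1 lies at chr1:121000988-121001060 on the minus strand, and is the single member with an exact B box core. No run of 4 T stands in its last 50 bases. It sits inside LINC00623, a long noncoding RNA gene on the opposite strand, and inside the pseudogene PDE4DIPP4 on its own strand. Its counts equal 97.1% of those of the widest LINC00623 rows of the table, so those rows may largely count reads of this member. The overlapping row lnc-FAM72B-19, on the member's own strand, held 53385 counts, and the member's counts equal 20.1% of these. Whether reads of longer transcripts enter the member's count was not tested.

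Over the whole set, an exact B box core was found in 1 of 29 tRX rows (3.45%) and in 285 of 499 tRNA rows (57.1%). With 1 mismatch allowed, the numbers were 14 of 29 (48.3%) and 478 of 499 (95.8%). A run of 4 T in the 3′ flank was found in 12 of 29 tRX rows (41.4%) and in 389 of 499 tRNA rows (78.0%). The B box was searched in the gene and the run of T in the flank, on the annotated strand, and a match describes letters only.

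Identity to the closest tRNA row, counted over the whole gene with gaps, ran from 61.6% to 98.6% with a median of 87.5%. tRX-Cys-NNN-4-1 was at 65.1% and tRX-Tyr-NNN-1-1 at 78.7%, while 3 of the members with 10 or more counts were at 93.2% or more. These are printed with the tRNA gene they resemble, because reads may be split between the copies. Capitals mark the bases that differ.
tRX-Glu-NNN-2-1: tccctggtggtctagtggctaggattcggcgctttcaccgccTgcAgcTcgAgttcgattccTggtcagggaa
tRNA-Glu-TTC-3-1: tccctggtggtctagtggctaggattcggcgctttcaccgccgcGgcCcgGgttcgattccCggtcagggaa
tRX-Gln-NNN-3-1: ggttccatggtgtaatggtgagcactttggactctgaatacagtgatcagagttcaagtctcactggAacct
tRNA-Gln-CTG-8-2: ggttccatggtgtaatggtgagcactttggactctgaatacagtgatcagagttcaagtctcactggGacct
tRX-Ala-NNN-5-1: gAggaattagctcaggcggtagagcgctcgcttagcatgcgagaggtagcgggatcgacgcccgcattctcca
tRNA-Ala-AGC-9-2: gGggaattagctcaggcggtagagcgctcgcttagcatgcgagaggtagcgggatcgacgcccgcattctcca

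tRX-Gln-NNN-3-1 (chr1:145563246-145563317, plus strand) and tRX-Ala-NNN-5-1 (chr6:57813490-57813562, minus strand) each differ from that tRNA gene by 1 substitution, near the 3′ end of the first and at the 5′ end of the second. tRX-Glu-NNN-2-1 differs from tRNA-Glu-TTC-3-1 (chr1:16535279-16535350, minus strand) by 4 substitutions and 1 extra base. How reads that match several places were assigned is not given in the sources used here, so the counts of the Gln and Ala members are uncertain.

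To follow the members relative to tRNA, their counts were expressed per 10000 counts summed over the tRNA rows of the same library. The mean tRNA share was itself lower in siSSB libraries, with overlapping ranges in total and nuc RNA. A steady value on this scale thus means a change like that of tRNA. tRX-Cys-NNN-4-1 was lower in siSSB than in control cells in all 3 kinds of RNA. In total RNA its 3 control libraries were at 55.9, 48.2 and 53.9, and its 3 siSSB libraries at 33.2, 18.3 and 23.7. In nuc RNA the control libraries were at 137, 348 and 166 and the siSSB libraries at 68.4, 45.9 and 62.1. In cyto RNA they were at 37.1, 39.97 and 53.1 against 17.1, 17.2 and 13.2. The control and siSSB ranges did not overlap in any of the fractions, and the control nuc libraries stood above all others. These ratios were not tested, since the smallest two-sided p of an exact permutation test is 0.1 for groups of this size.

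tRX-Glu-NNN-2-1 moved little on the same scale. Its control libraries were at 21.3, 15.9 and 16.6 in total RNA and its siSSB libraries at 16.9, 15.7 and 16.9. In nuc RNA they were at 14.4, 12.5 and 18.9 against 7.58, 16.5 and 14.2, and in cyto RNA at 10.6, 9.04 and 12.5 against 11.8, 18.5 and 10.3. Control and siSSB libraries overlapped in every fraction.

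tRX-Tyr-NNN-1-1 was lower in siSSB than in control libraries in total RNA, at 4.94, 2.89 and 1.71 in control and 0.725, 0.481 and 1.37 in siSSB cells, with no overlap. In nuc RNA it was at 2.73, 2.99 and 5.67 against 2.59, 1.94 and 3.004, and in cyto RNA at 0.365, 0.443 and 0.824 against 0.0970, 0.518 and 0.351, and both pairs of groups overlapped. Its cyto level lay under its nuc level in every library. At 7 to 285 counts a library it rests on far fewer reads than the other 2 leading members.

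**Figure D2:**
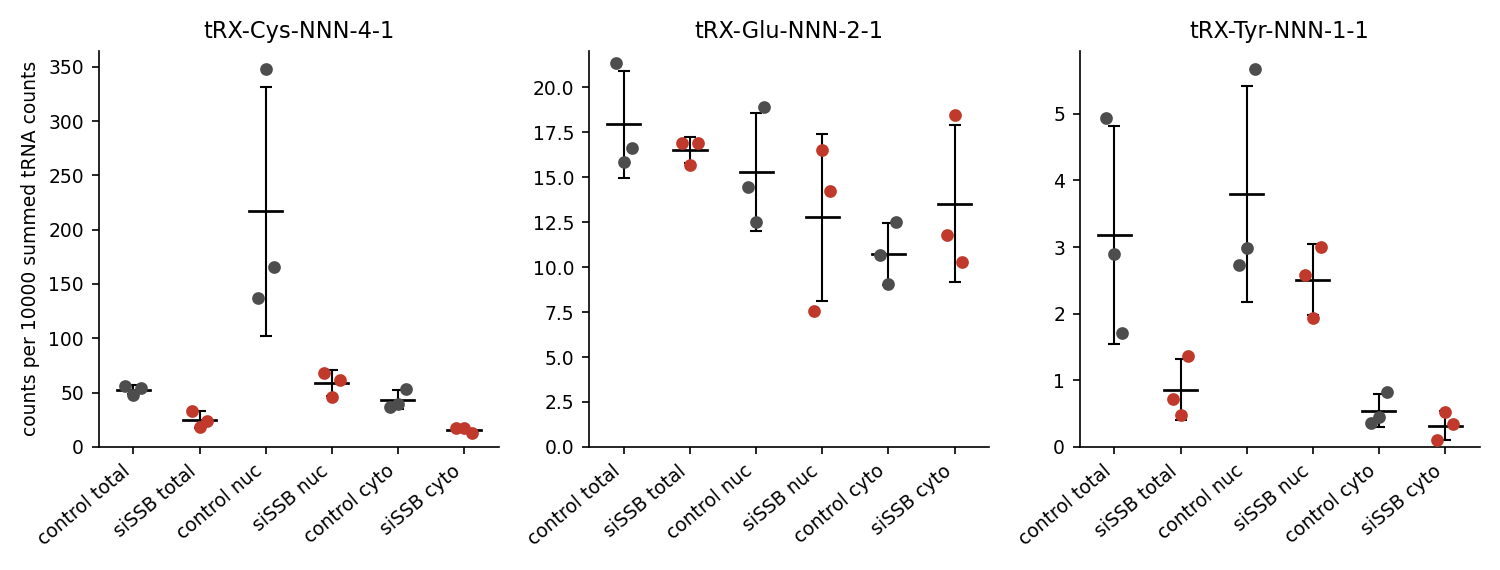
Counts of the 3 leading tRX members per 10000 summed tRNA counts of the same library (vertical axes, different ranges), by group, with control in grey and siSSB in red. Points are libraries, bars are the mean and SD (n = 3). For tRX-Cys-NNN-4-1 the siSSB points lie under the control points in each fraction, while those of tRX-Glu-NNN-2-1 overlap in each.

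The knockdown was then tested across all rows with edgeR's quasi-likelihood test, with libraries scaled by TMM, which assumes that most rows do not change, and p-values adjusted by Benjamini-Hochberg over every row tested. The study reports biological replicates, processed on the same day in its genomic experiments, without naming separate cultures. These p-values may therefore measure technical spread. In total RNA 5 members had enough counts to be tested and 3 were called lower in siSSB cells, none higher, where 0.972% of all 13883 rows tested were called lower. A row was tested where at least 3 libraries reached the filter's level of about 10 counts, and tRX-Ala-NNN-5-1 and tRX-Gln-NNN-3-1 reached it in control libraries only. Those members were selected by their level in 1 of the groups compared, so the count of 3 is a description. Of 436 tRNA rows 43 were called lower and none higher, and 285 had an unadjusted edgeR p under 0.05. Their median log2 fold change was -0.84, against -0.01 over all rows.

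tRX-Cys-NNN-4-1 counted 3228, 2118 and 2809 in the control total libraries and 1055, 572 and 899 in the siSSB ones. It fell by 1.78 on the log2 scale (SE 0.36, edgeR adjusted p = 0.0333). Without control total replicate 2 or siSSB total replicate 2 its adjusted p became 0.0745 or 0.0582 (edgeR), with log2 fold changes of -1.96 and -1.37. Over all rows these fits called 69 and 77, against 186 with every library.

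tRX-Tyr-NNN-1-1 counted 285, 127 and 89 against 23, 15 and 52, and fell by 2.61 on the log2 scale (SE 0.54, edgeR adjusted p = 0.0368). Its call was lost without control total replicate 2, siSSB total replicate 1 or siSSB total replicate 2 (edgeR adjusted p = 0.0683, 0.0987 and 0.111), with log2 fold changes of -2.81, -2.42 and -2.08. Over all rows these fits called 69, 203 and 77. The log2 fold change of this member ran from -1.89 without control total replicate 1 to -3.35 without siSSB total replicate 3. tRX-Ala-NNN-5-1 counted 31, 11 and 13 against 4, 3 and 2, with a fitted log2 fold change of -2.72. No siSSB library reached the filter's level for this member, and its call remained in 1 of 6 fits that each left out a library, that without control total replicate 3.

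The tRNA gene that differs from tRX-Ala-NNN-5-1 by a single base was called lower too. tRNA-Ala-AGC-9-2 counted 390, 293 and 425 in control and 43, 70 and 122 in siSSB total RNA, a log2 fold change of -2.36 (SE 0.35, edgeR adjusted p = 0.0127). The members that did not pass in total RNA were tRX-Gln-NNN-3-1, at 17, 14 and 24 against 8, 1 and 7 counts (log2 fold change -1.87, edgeR adjusted p = 0.101), and tRX-Glu-NNN-2-1. For the latter the counts were 1232, 697 and 867 against 537, 489 and 641, and the log2 fold change was -0.88 (SE 0.31, edgeR adjusted p = 0.169), near the median of the tRNA rows. The tRNA copy of the Gln member, tRNA-Gln-CTG-8-2, was called lower at -1.61 (SE 0.27, edgeR adjusted p = 0.0196).

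In nuc RNA 3 members were tested and 1 was called, where 0.349% of the 6873 rows tested were called lower. tRX-Cys-NNN-4-1 counted 1052, 1976 and 789 in control and 370, 189 and 310 in siSSB nuclei, and fell by 2.18 on the log2 scale (SE 0.39, edgeR adjusted p = 0.0131). Without siSSB nuc replicate 2, 0 of all rows were called, against 26 with every library. Leaving that library out thus ended this member's call too (log2 fold change -1.89, edgeR adjusted p = 0.312). So did scaling by library size alone, by the snoRNA total or by the miRNA total (edgeR adjusted p = 0.0959, 0.126 and 0.0607), with log2 fold changes of -1.88, -1.95 and -1.83. tRX-Tyr-NNN-1-1 (21, 17 and 27 against 14, 8 and 15 counts) had a log2 fold change of -0.87 and tRX-Glu-NNN-2-1 (111, 71 and 90 against 41, 68 and 71) one of -0.64, neither called. Of 316 tRNA rows in this fraction 1 was called higher and 1 lower, and 80 had an unadjusted edgeR p under 0.05. The log2 fold change was negative for 231 of them, with a median of -0.35 against 0.08 over all rows.

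In cyto RNA 4 members were tested and 1 was called, where 0.27% of the 18921 rows tested were called lower. Again it was tRX-Cys-NNN-4-1, with 3155, 2705 and 7226 counts in control and 1237, 962 and 902 in siSSB cytoplasm, which fell by 2.07 (SE 0.29, edgeR adjusted p = 0.0330). The call was lost in 5 of 6 fits that left out a library, every one but that without control cyto replicate 3, with edgeR adjusted p from 0.0571 to 0.172 and log2 fold changes of -2.21 to -2.01. Over all rows these 5 fits called 2 to 45, against 55 with every library. tRX-Gln-NNN-3-1 counted 49, 26 and 104 against 9, 15 and 13, with a log2 fold change of -2.23 (SE 0.39, edgeR adjusted p = 0.0538). tRX-Tyr-NNN-1-1 (31, 30 and 112 against 7, 29 and 24) and tRX-Glu-NNN-2-1 (905, 612 and 1702 against 850, 1035 and 704) had log2 fold changes of -1.45 and -0.30. Of 442 tRNA rows 19 were called lower and none higher, with a median of -0.61, and 187 had an unadjusted edgeR p under 0.05.

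**Figure D3:**
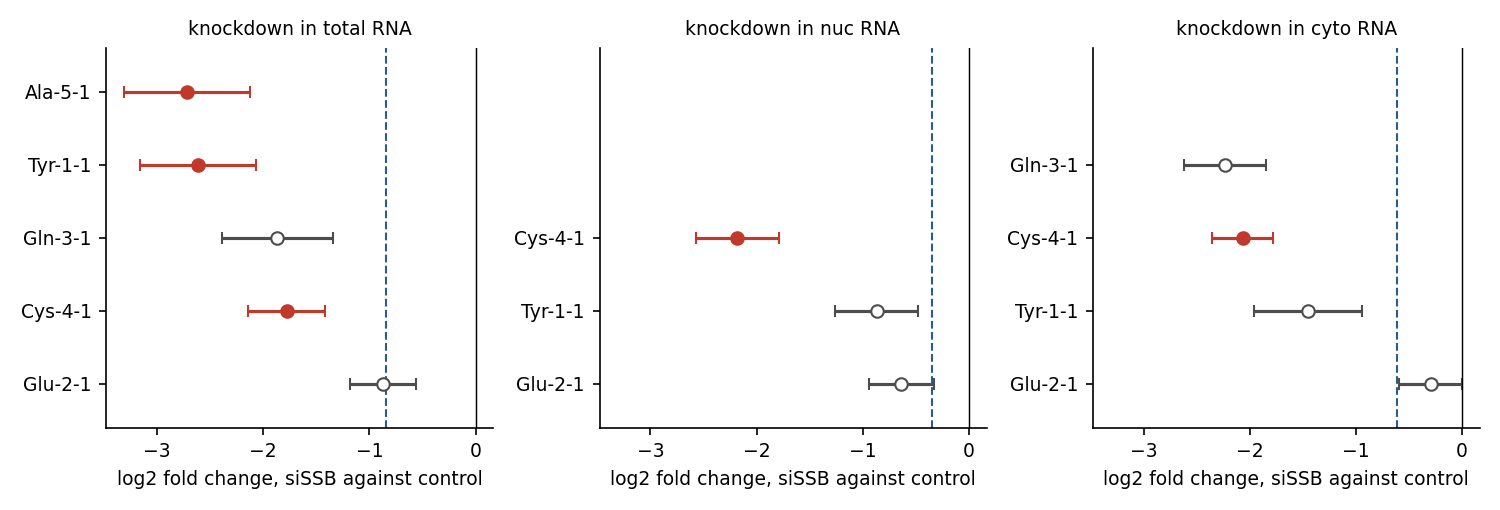
Log2 fold change of siSSB against control (horizontal axis, bars are SE) for the tRX members tested in each kind of RNA, with names shortened. Filled red points passed an adjusted p of 0.05 in edgeR, open points did not, and the dashed line is the median over tRNA rows. tRX-Cys-NNN-4-1 passed in all 3 panels, at -1.78, -2.18 and -2.07, while tRX-Ala-NNN-5-1 entered the test through its control libraries only.

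With TMM scaling and the filter, tRX-Cys-NNN-4-1 was the only member called in more than 1 kind of RNA. With no filter beyond 1 count, tRX-Gln-NNN-3-1 and tRX-Tyr-NNN-1-1 were also called in total and cyto RNA, and under the miRNA total tRX-Gln-NNN-3-1 was. The tRNA-Cys rows of the same fits, from confidently called cysteine tRNA genes, were called lower in 1 of 25 in total RNA, in none of 9 in nuc and in none of 25 in cyto by edgeR. At an unadjusted p under 0.05 these numbers were 18, 2 and 14. Their median log2 fold changes were -1.06, -0.20 and -0.81. Single tRNA-Cys rows ran from -2.06 to -0.25 in total, -1.31 to 1.55 in nuc and -1.87 to -0.19 in cyto. In the control total libraries 30 tRNA-Cys rows together held 3748, 2479 and 2570 counts. Most of them thus rest on far fewer counts than tRX-Cys-NNN-4-1. The tRNA-Glu rows had no edgeR calls among 17 in any of the 3 (14, 10 and 2 at an unadjusted p under 0.05), with medians of -0.81, -0.68 and -0.41, the last below the -0.30 of tRX-Glu-NNN-2-1. The tRNA-Tyr rows were called lower in 5 of 13 in total RNA and in 3 of 13 in cyto, with medians of -1.36 and -1.41. In nuc none of 11 was called lower by edgeR and 1 was called higher (5 at an unadjusted p under 0.05), with a median of -0.18.

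A test of whether the knockdown effect differed between nuc and cyto called none of 6 members in edgeR, and none had an unadjusted p under 0.05. The Gln, Asp and Ala members reached the filter's level in cyto libraries only, and the Tyr member in 1 control nuc library besides. For these members the test could hardly show an effect in nuc. The Cys and Glu members reached that level in every library. DESeq2's Wald test called none either. Over all 37493 rows 5 passed (0.0133%) and 1836 had an unadjusted p under 0.05. For tRX-Cys-NNN-4-1 the difference was -0.23 (log2, SE 0.48, edgeR adjusted p = 0.999).

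The members were also compared with tRNA as a sum. All tRX counts per 10000 tRNA counts were 83.3, 67.6 and 73.0 in control total RNA and 51.5, 34.9 and 42.4 in siSSB total RNA. In nuc they were 155, 364 and 191 against 78.5, 65.3 and 79.5, and in cyto 49.2, 50.1 and 67.5 against 29.3, 36.8 and 24.3. The siSSB libraries lay under the control libraries in each fraction. The mean log2 ratio changed by -0.81 in total, -1.58 in nuc and -0.89 in cyto, and its SD within groups was 0.23, 0.47 and 0.28 (n = 3 per group).

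These falls rest largely on 1 row. Without tRX-Cys-NNN-4-1 the control total libraries were at 27.3, 19.4 and 19.1 and the siSSB total libraries at 18.2, 16.5 and 18.7. The nuc libraries were at 17.96, 16.4 and 25.4 against 10.2, 19.4 and 17.4, and the cyto libraries at 12.04, 10.2 and 14.3 against 12.2, 19.6 and 11.1. The mean log2 ratio then changed by -0.28 in total, -0.37 in nuc and 0.20 in cyto, so the cyto difference changed sign. tRX-Cys-NNN-4-1 made up 46.7% to 95.5% of the tRX counts of a library, with its lowest share in siSSB cyto and its highest in control nuc.

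**Figure D4:**
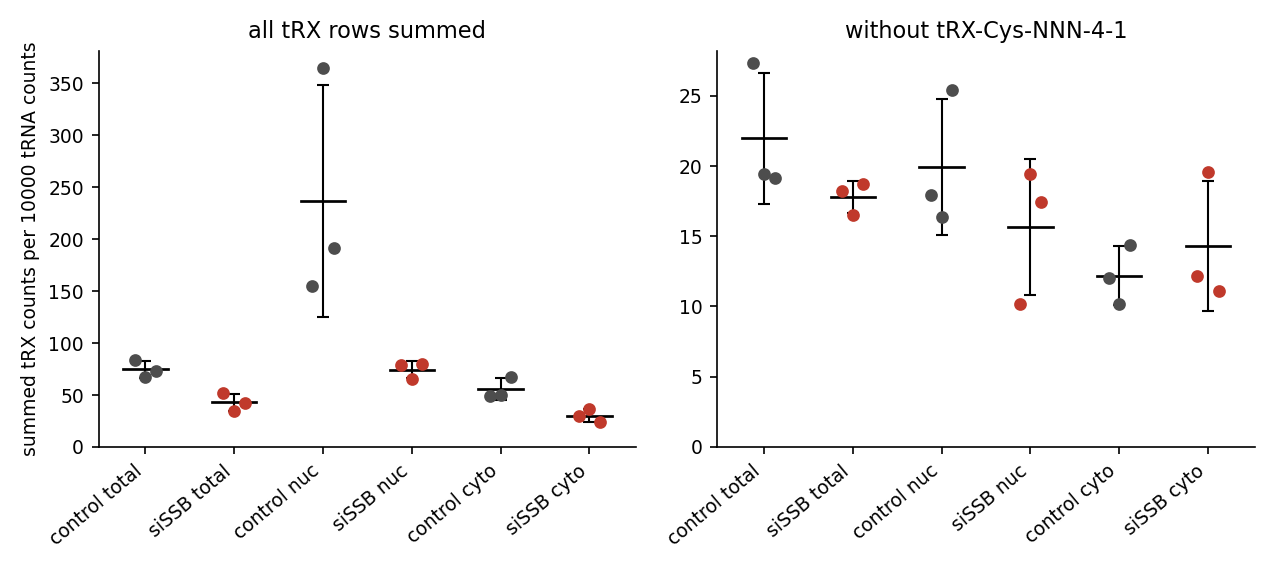
Summed tRX counts per 10000 summed tRNA counts (vertical axes) by group, with all members on the left and without tRX-Cys-NNN-4-1 on the right; control in grey, siSSB in red. Points are libraries, bars the mean and SD (n = 3). The siSSB points lie under the control points in each fraction on the left and overlap with them in nuc and cyto on the right.

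Set against the genes of its own amino acid, tRX-Cys-NNN-4-1 was an abundant row. In control total RNA its counts equalled 86.1%, 85.4% and 109% of the sum over 30 tRNA-Cys rows, and in siSSB total RNA 71.0%, 44.4% and 41.3%. In nuc RNA it was at 161%, 310% and 165% in control and 58.2%, 39.9% and 62.1% in siSSB cells. In cyto RNA it was at 57.2%, 60.7% and 87.6% against 36.9%, 36.1% and 24.9%. Control nuc was the one group in which every library had more counts on this row than on all tRNA-Cys rows together, and the control and siSSB ranges did not overlap in any fraction.

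tRX-Glu-NNN-2-1, in contrast, was at 0.760% to 1.38% of the summed tRNA-Glu rows (17 rows) over all 18 libraries, with means of 1.18% ± 0.139 in control and 1.11% ± 0.0885 in siSSB total RNA (SD, n = 3 each). tRX-Tyr-NNN-1-1 was at 1.08% ± 0.559 of the summed tRNA-Tyr rows (15 rows) in control and 0.409% ± 0.143 in siSSB total RNA, and at 1.57% ± 0.453 against 0.862% ± 0.300 in nuc. Its control and siSSB ranges did not overlap in these 2 comparisons, at 0.579% against 0.555% for the nearest total libraries. In cyto it was at 0.177% ± 0.0776 against 0.155% ± 0.106, and the groups overlapped.

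**Figure D5:**
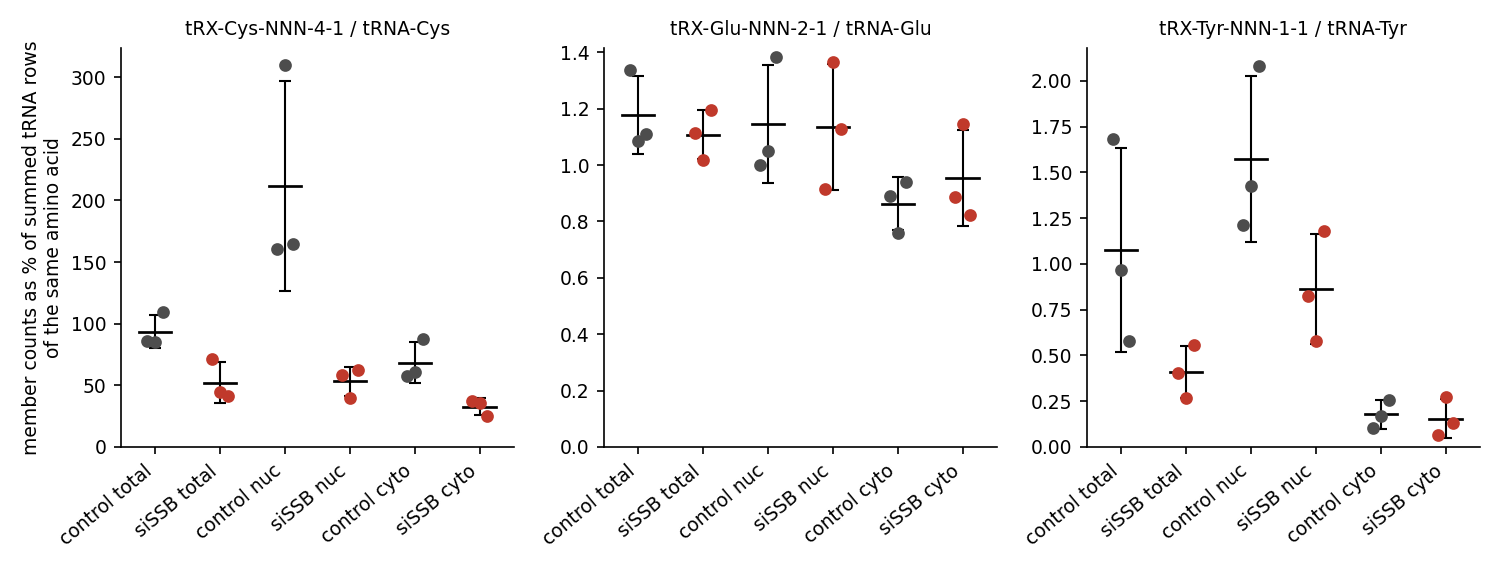
Counts of each leading member as a percentage of the summed tRNA rows of the same amino acid (vertical axes, different ranges), by group, with control in grey and siSSB in red. Points are libraries, bars the mean and SD (n = 3). tRX-Cys-NNN-4-1 reached 310% in 1 control nuc library, and its siSSB nuc libraries were at 39.9% to 62.1%.

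The ratio of the 2 most counted members was lower in siSSB than in control libraries in total and cyto RNA. tRX-Cys-NNN-4-1 had 2.62, 3.04 and 3.24 times the counts of tRX-Glu-NNN-2-1 in control total RNA and 1.96, 1.17 and 1.40 times in siSSB total RNA. In cyto the ratios were 3.49, 4.42 and 4.25 against 1.46, 0.929 and 1.28. In nuc they were 9.48, 27.8 and 8.77 against 9.02, 2.78 and 4.37, where the groups overlapped.

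Between compartments, the members differed in where their reads lay relative to tRNA. Summed tRX counts per 10000 tRNA counts averaged 237 ± 112 in the nuclei and 55.6 ± 10.3 in the cytoplasm of control cells (SD, n = 3 each). In siSSB cells the averages were 74.4 ± 7.96 and 30.1 ± 6.28. On this scale tRX-Cys-NNN-4-1 had 217 ± 114 in control nuc against 43.4 ± 8.55 in control cyto, and tRX-Tyr-NNN-1-1 3.799 ± 1.63 and 0.544 ± 0.246. tRX-Glu-NNN-2-1 had 15.3 ± 3.28 and 10.7 ± 1.74. Every nuc library of the Cys and Tyr members lay above the cyto libraries of the same treatment, and for the Glu member the ranges overlapped in both treatments.

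In the fit across all rows, TMM scaled, 6 members were tested in each treatment, and 3 were called lower in nuc than in cyto, none higher. Of these 3, tRX-Gln-NNN-3-1 and tRX-Asp-NNN-1-1 reached the filter's level in cyto libraries only, so their calls are not read as a difference, and tRX-Glu-NNN-2-1 reached it in every library. In control cells 14.1% of the 26774 rows tested were called lower, and in siSSB cells 14.5% of 26274. Of the tRNA rows, 353 of 457 were called lower in control cells and 296 of 441 in siSSB cells, with medians of -2.26 and -1.93. tRX-Glu-NNN-2-1 was lower in nuc by log2 fold changes of -1.53 in control (SE 0.32, edgeR adjusted p = 0.00033) and -2.04 in siSSB cells (SE 0.35, edgeR adjusted p = 4.77e-05).

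tRX-Gln-NNN-3-1 counted 1, 3 and 4 in the nuclei of control cells against 49, 26 and 104 in their cytoplasm. It had no count in siSSB nuc against 9, 15 and 13 in siSSB cyto. With TMM scaling and the nuc libraries set at a floor of 3 counts each, its cyto mean was 1.19 times that floor. As it was tested through its cyto libraries, this value is a description and depends on the scaling. tRX-Asp-NNN-1-1 counted 1, 0 and 0 in the nuclei of control cells against 15, 11 and 14 in their cytoplasm, and 0 in all siSSB nuc libraries against 7, 9 and 6 in siSSB cyto. At this floor the depth sets no bound on the latter fold. The call in control cells was lost in 3 of 6 fits that each left out a library and in DESeq2's Wald test.

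tRX-Cys-NNN-4-1 had log2 fold changes of 0.28 in control (SE 0.32, edgeR adjusted p = 0.591) and 0.03 in siSSB cells (SE 0.33, edgeR adjusted p = 0.962), and tRX-Tyr-NNN-1-1 of 0.69 and 1.08, neither called. In siSSB cells the Tyr member reached the filter's level in cyto libraries only, with 14, 8 and 15 counts in nuc, so its value there is a description. The Ala member reached it in cyto only in both treatments. The fold changes between compartments depend on the scaling. With libraries scaled by their size alone or by their snoRNA total all 6 members were called lower in nuc, where 98.3% to 98.7% of all rows tested were called, and the Cys and Tyr members turned negative, at -3.86 and -3.39 in control cells by size alone. The median of all rows moved to -4.33 under library size and -6.11 under the snoRNA total in control cells.

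As context for La, 12 other polymerase III transcripts were followed in the same fits. In total RNA 3 of 12 were called lower, the vault RNAs VTRNA1-1, VTRNA1-2 and VTRNA1-3, RNAs of the vault particle, with log2 fold changes of -2.25, -2.58 and -1.67. In nuc and in cyto 2 of 12 were called lower, VTRNA1-1 (-1.80 and -1.83) and VTRNA1-2 (-1.91 and -2.28). The 4 Y RNAs, RN7SK, the RNase MRP and RNase P RNAs RMRP and RPPH1, and the signal recognition particle RNAs RN7SL1 and RN7SL2 were not called by edgeR in any knockdown comparison, with log2 fold changes from -1.08 to 0.16. Of these 9, an unadjusted p under 0.05 was found for 1 in total, 2 in nuc and 0 in cyto RNA. Between compartments of control cells, TMM scaled, RN7SK was lower in nuc (log2 fold change -1.22). RN7SL1 and RN7SL2 were higher in nuc (3.05 and 2.94), as were RMRP and RPPH1 (2.06 and 2.09), and the Y RNAs were lower (-4.01 to -1.59). The study places 7SK in transcription and 7SL at the endoplasmic reticulum, so these RNAs went against the fraction check. The cause was not tested. tRX-Cys-NNN-4-1, at -1.78, -2.18 and -2.07, was within the span of the vault RNAs in total and cyto RNA and below it in nuc, where they ran from -1.91 to -1.40, and the difference was not tested.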

How the data were processed

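Small RNA libraries were made by the authors with a NEBNext small RNA kit after PNK treatment, from 6 groups of 3 libraries, fractions being separated with a mirVana PARIS kit. The submitters' processing notes name Bowtie2, bedtools and the build hg38. The study's software list for eCLIP-seq and RNA-seq also names a trimmer and gives versions, without saying whether it covers these small RNA libraries. Strand setting and treatment of reads with several matches are not given in the sources used here. The deposited values are raw counts per annotated row, not normalized, in which overlapping rows can share reads. Groups were taken from the sample labels.

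Members and lists were chosen with earlier results of these data known. Counts were tested in edgeR 4.0.16 (R 4.3.3) with filterByExpr (a level set by 10 counts at the median library size, in at least 3 libraries), TMM scaling and glmQLFTest, each comparison on its own libraries and the nuc minus cyto difference on all 12 libraries of those fractions. An adjusted p under 0.05 was called. The fitting step was tested on simulated data. DESeq2 1.42.0, other scalings, filters, the replicate block and leaving out each library were alternatives. Sums took rows of identical counts within tRX or tRNA once, leaving 493 of 499 tRNA rows.

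Named members were the 8 with the highest mean share of tRX counts, up to 8 called per comparison, tRX-Tyr-NNN-1-1 and tRX-Cys-NNN-4-1, and any called in 2 knockdown comparisons. tRNA rows were named where most similar in sequence to a named member. Ratios to tRNA rows of the same amino acid and between the Cys and Glu members were added after values had been seen. Sequences came from hg38 and gene overlaps from GENCODE v44, with identity as the percentage of the longer gene left after the edit distance (edlib). The number of libraries limits precision, and floors cover counting error only.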

Additional observations from a re-analysis of the deposited data

How the results depend on the processing

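Numbers of members called moved as follows. In total RNA, 3 became 1 under the snoRNA total, 5 under the miRNA total and 1 with repeated rows taken once, and 0 to 3 without 1 library (0 without control total replicate 2 or siSSB total replicate 2). In nuc, 1 became 0 under scaling by library size, by snoRNA total or by miRNA total, and 0 to 1 without 1 library. In cyto, 1 became 0 under the snoRNA total, 2 under the miRNA total, DESeq2's Wald test or repeated rows once, 3 with no filter beyond 1 count, and 0 to 1 without 1 library. Between compartments 3 became 6 in either treatment when scaled to library size or snoRNA total (26435 and 26314 of all 26774 rows called in control cells, 25875 and 25835 of 26274 in siSSB cells), and ranged from 2 to 4 in control and 2 to 3 in siSSB cells without 1 library. The knockdown difference between fractions called 0 under all 20 alternatives run, with the Gln, Asp and Ala members at 0 to 4 counts in each nuc library. The numbers called over all rows varied too. In total RNA 186 became 693 under the snoRNA total, 2899 under the miRNA total and 125 with repeated rows once. In nuc 26 became 0 under library size or the snoRNA total and 18 under the miRNA total. In cyto 55 became 3 under the snoRNA total, 63 under the miRNA total and 71 with repeated rows once. The cyto number was 174 in DESeq2's Wald test and 248 with no filter beyond 1 count. Without 1 library, the numbers over all rows were 69 to 303 in total, 0 to 37 in nuc and 2 to 45 in cyto. The cause of these changes was not tested.

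The log2 fold change of tRX-Cys-NNN-4-1 stayed negative in all 14 alternatives of each knockdown comparison, from -2.28 to -1.15 in total (11 called), -2.45 to -1.68 in nuc (10 called) and -2.27 to -1.62 in cyto (7 called). Its edgeR or DESeq2 adjusted p reached 0.0772, 0.312 and 0.246. Without that row the tRX to tRNA log2 ratio changed by -0.28 in total, -0.37 in nuc and 0.20 in cyto, and by 0.70 and 0.12 between compartments in control and siSSB cells. Its other alternatives stayed within 1 SD, with knockdown ranges without 1 library of -0.95 to -0.67, -1.83 to -1.21 and -1.04 to -0.74.

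Signs of uncalled differences turned as follows. Between compartments tRX-Cys-NNN-4-1 in control cells was at -3.86 under library size alone, -5.64 under the snoRNA total, -0.80 under the miRNA total and -0.21 with no filter, and from -0.19 to 0.51 without 1 library. In siSSB cells it was at -3.89, -5.96, -0.36 and -0.35 under these 4 and -0.14 in DESeq2, and from -0.13 to 0.39 without 1 library. tRX-Tyr-NNN-1-1 was at -3.39, -5.12 and -0.47 in control cells under the first 3 and at -2.75 and -4.76 in siSSB cells under the first 2. In cyto tRX-Glu-NNN-2-1 was at 0.10 under the snoRNA total. For the knockdown difference between fractions the miRNA total gave 0.44 for the Cys and 0.0701 for the Glu member. Without 1 library that difference ran from -0.45 to 0.27 for Cys, -0.0859 to 0.83 for Tyr, -4.18 to 1.00 for Ala and -2.54 to 0.94 for Asp.

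Libraries share replicate numbers, which were not taken as pairs. Deviations of same-numbered libraries correlated at -0.484 to 0.0952 between treatments and at -0.0336 to 0.159 between nuc and cyto. Correlations between libraries of different numbers were not computed, so these values do not decide whether nuc and cyto libraries are paired. With the replicate block the members called were 3 in total, 1 in nuc, 0 in cyto, 3 and 4 between compartments, and 0 for the difference. Over all rows the block called 199 of 13883 in total, 40 of 6873 in nuc and 4 of 18921 in cyto. Between compartments in control cells it called 5939 of 26774. The blocked tRX-Cys-NNN-4-1 change between compartments in siSSB cells was -0.0602, and in cyto its knockdown value was -2.03 (edgeR adjusted p = 0.242).

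Depth limits the members below the first 3, since 22 of 29 had under 10 counts over all libraries.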
